A study of Mus musculus with 4 samples.

Results

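Krt6a, Krt6b, Krt16 and Krt17 are the keratins that interfollicular epidermis (IFE) switches on after wounding and under stress. They were examined as a family in single-cell transcriptomes of mouse back skin epidermis, where they are 4 of the 32479 genes counted, chosen by symbol. All 4 were counted in each mouse.

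Keratins form filaments from 1 type II and 1 type I chain. Krt6a and Krt6b encode type II chains, and Krt16 and Krt17 encode type I chains that pair with them. In unwounded skin these genes are known from the hair follicle, above all from the companion layer and the keratinocytes around the club hair, and from nail and footpad. In injured or inflamed IFE they are switched on within hours, and they are therefore read as markers of an activated keratinocyte.

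CerS4, a ceramide synthase that makes sphingolipids, was deleted in keratinocytes by a Cre under the Keratin 14 promoter (CerS4fl/flK14Cre+, named CerS4epi-/-), and animals with the same floxed alleles and no Cre (CerS4fl/flK14Cre-) served as control. There were 2 female C57BL/6N mice per genotype, at postnatal day 19. Each has 1 count matrix from the BD Rhapsody whole transcriptome assay, called a library here. The values are estimated counts of molecules, in which a read that fits more than 1 gene is divided among the genes it fits. A barcode was taken as a cell from 1200 counts upwards if its mitochondrial share did not exceed 20%, 34150 in all and 7567 to 9086 per mouse, with 35007781 to 47960838 counts in the cells of a mouse and a median of 3266.5 to 3884 counts per cell. Levels are given in CPM, a gene's share of all counts summed over the cells of a class and mouse, scaled as usual for CPM. Differences between genotypes come from edgeR's quasi-likelihood test on these sums, adjusted after Benjamini and Hochberg over all genes tested in the class.

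Some features of the libraries bear on every comparison. The libraries of the control pair shared 0 cell barcodes and those of the CerS4epi-/- pair shared 0, where 87.1 and 77.1 were expected at random, while libraries of different genotypes shared 64 to 102 against an expected 72.5 to 92.6. Libraries of 1 genotype are thus related in a way that libraries of different genotypes are not. In the paper, cells were labelled with a multiplexing kit before loading on a cartridge, and sample tags were demultiplexed afterwards. Which mice shared a cartridge is not stated there. An effect of genotype and an effect of how the libraries were loaded cannot be told apart. Mitochondrial genes made up a median of 8.66% and 8.56% of a control cell's counts, and of 9.94% and 9.68% in CerS4epi-/- mice. Cers4 was at 17.4 and 3.37 CPM in control and at 4.21 and 7.73 CPM in CerS4epi-/- mice over all cells. It did not separate the genotypes (adjusted p = 0.465), and whether the counted reads lie in the deleted part is not given in the sources used here.

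The sequences set how far the 4 genes could be told apart. All lie on the minus strand of GRCm39, Krt6b at chr15:101584458-101588722, Krt6a beside it at chr15:101598345-101602742, Krt16 at chr11:100136917-100139795 and Krt17 at chr11:100147040-100151974. The coding sequences of Krt6a and Krt6b were 97.6% identical, with a longest identical run of 280 bases, against 69.9% for Krt16 and Krt17. Of all windows of 75 bases, the length of a read, 36.2% of those in the Krt6a transcript and 36.9% of those in the Krt6b transcript occurred in the other gene unchanged. The 500 windows nearest the 3' end were shared with no other gene in any of the 4. Krt16 shared 6.16% of its windows with Krt14 and Krt17 shared 0 with any gene. The coding stretch of 150 bases within 1 exon where Krt6a and Krt6b differ most shows how little there is to read, with the 8 differing bases in capitals, at chr15:101602261-101602410 and chr15:101588236-101588385, minus strand (Gencode vM39 transcripts).
Krt6a: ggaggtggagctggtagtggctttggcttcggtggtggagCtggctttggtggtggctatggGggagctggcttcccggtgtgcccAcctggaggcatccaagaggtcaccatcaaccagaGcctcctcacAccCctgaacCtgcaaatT
Krt6b: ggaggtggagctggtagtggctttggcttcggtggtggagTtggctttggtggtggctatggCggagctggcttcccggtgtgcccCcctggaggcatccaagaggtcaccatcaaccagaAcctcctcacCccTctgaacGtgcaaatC
In the matrices, 17.9% of the entries of Krt6b were not whole numbers and so held shared reads, against 4.31% of Krt6a, 1.72% of Krt16 and 0.663% of Krt17.

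Cells were sorted into classes by counts of marker genes, none of them a member of the family. Krt75-positive cells (149 cells, with at least 2 counts of Krt75, a keratin of the companion layer and inner bulge) carried the inner bulge markers. These 4 genes, Krt75 itself among them, summed to 5549 and 6887.5 CPM in control and 4372 and 3310 CPM in CerS4epi-/- mice. The 8 outer bulge markers were higher, at 25547 and 24461 CPM in control and 22196 and 18803 CPM in CerS4epi-/- mice. This class too is therefore called by its rule. Lhx2-positive cells (351 cells, at least 2 counts of Lhx2, a factor of bulge stem cells) had little Cd34 (22.4 and 0 CPM in control, 16.1 and 9.49 CPM in CerS4epi-/- mice) and carried genes of the upper follicle (18545 to 44022 CPM for 7 markers), so they are called by their rule and not as outer bulge. Krt79-positive cells (4950 cells, at least 3 counts of Krt79) carried the 7 upper hair follicle markers, Krt79 itself among them. These summed to 16899 and 14124 CPM in control and 26989 and 33260 CPM in CerS4epi-/- mice. The 6 IFE differentiated markers were higher than these in control (24600 and 26631 CPM) and lower in CerS4epi-/- mice (16798 and 16364 CPM). The class is therefore called by its rule as well. Basal cells (11718) held Krt5 and Krt14, and those of them with at least 2 counts of Sox9, a factor of follicle keratinocytes, were kept apart as Sox9-positive basal cells (1170). Cycling (989), differentiated (10346) and keratinized (3268) cells make up, together with the basal cells, the classes called IFE here. No rule kept out follicle cells under the limits of Krt75, Lhx2 and Krt79. The 7 upper hair follicle markers summed to 305 and 260 CPM in control and 549 and 667 CPM in CerS4epi-/- basal cells. In keratinized cells they were at 1618 and 1713 against 2015 and 2266 CPM. The part of follicle cells in the results of these classes was not tested. T cell-like (452) and Langerhans cell-like (215) cells were classed by immune markers, and their keratin counts are given as a measure of free RNA, from few cells per mouse. Doublets were not called, so some of these counts may come from a keratinocyte under the same barcode.

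In control mice the members lay in different places. Krt6a was highest in Krt75-positive cells, at 8475 and 5512 CPM, and was held by all 47 and 41 of them. It stood at 2301 and 2512 CPM in Lhx2-positive and at 1294 and 1407 CPM in Sox9-positive basal cells, which differ by more than the spread between mice. In Krt79-positive cells it was at 27.6 and 11 CPM, below the 84.4 and 13.9 CPM of the T cell-like cells of the same mice, where 16 of the 19 counts of replicate 1 came from 1 cell. Langerhans cell-like control cells had no count of it (0 of 73 and 0 of 42 cells, which allows a share with a count of up to 4.11% and 7.14%). Of all Krt6a counts, 50.9% and 40.2% lay in Krt75-positive cells, which are 0.554% and 0.451% of the cells, and 2.18% and 1.08% lay in Krt79-positive cells.

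Krt17 had another order of levels. It was highest in Krt79-positive cells, at 12617 and 11561 CPM, and 74.9% and 65.7% of its counts lay there. Lhx2-positive cells followed with 5157 and 3740 CPM, then Krt75-positive cells with 1376 and 881 CPM and Sox9-positive basal cells with 1028 and 1235 CPM, whose ranges overlap. Keratinized cells were at 798 and 762 CPM, and basal, cycling and differentiated cells at 90.8 to 192 CPM.

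Krt16 had no such centre in control mice. Its counts were spread over differentiated cells (36.3% and 45.3%), basal cells (22.2% and 32.8%) and Krt79-positive cells (13.9% and 12.1%), at 18.3 to 57.4 CPM in these classes. The higher value of 239 CPM in Krt75-positive cells of control replicate 1 rested on 1 cell with 78.6% of the counts, and replicate 2 had 0. Krt6b was found in 5 and 6 control cells, with 9 and 63 counts, in basal, differentiated and keratinized cells. In Krt79-positive control cells it was found in 0 of 900 and 0 of 686 cells, which allows a share of cells with a count of up to 0.333% and 0.437% at a median depth of 2747.5 and 2420 counts, and does not limit the share that expresses it.

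**Figure D1:**
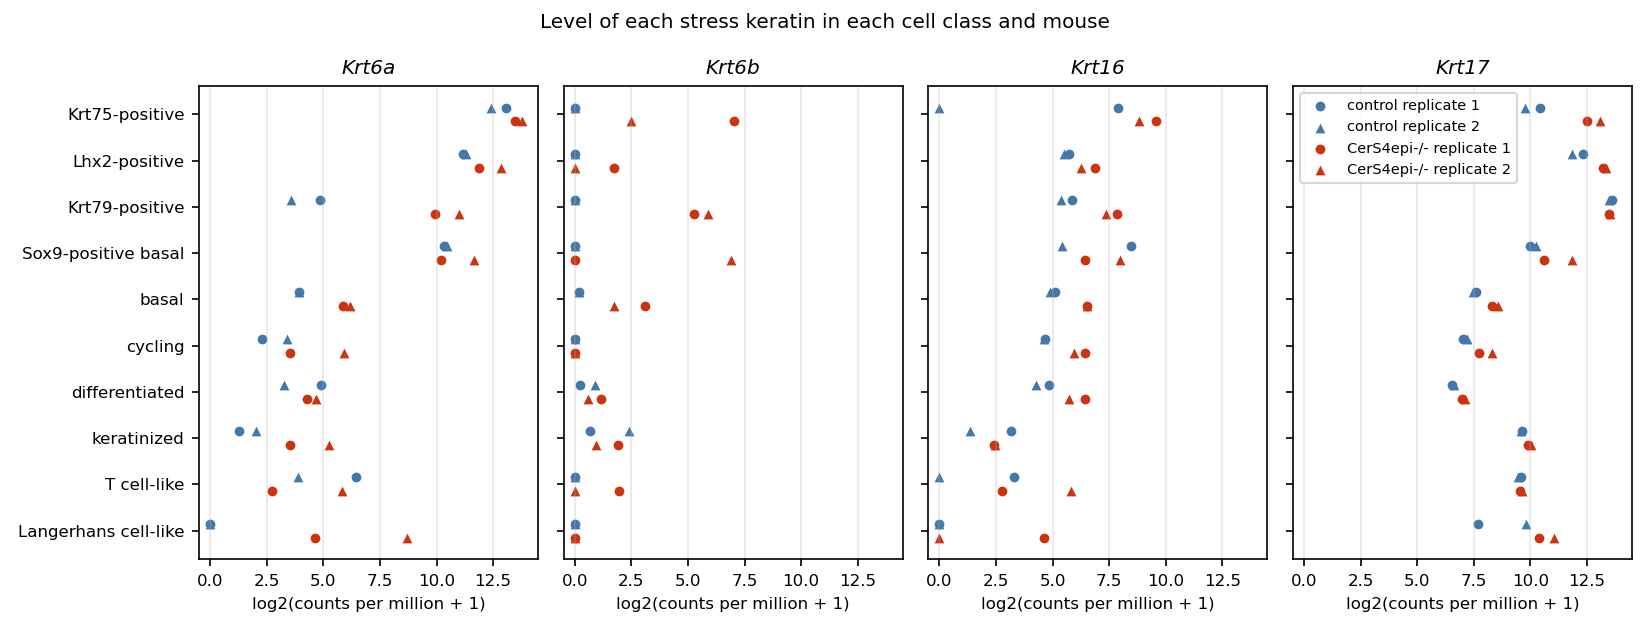
Level of each of the 4 genes (1 panel each) in 10 cell classes, as log2(CPM + 1) on the horizontal axis, with 1 point per mouse, blue for control and red for CerS4epi-/-. The Krt6a points of Krt79-positive cells lie far apart by genotype (27.6 and 11 against 981 and 2007 CPM), while the Krt17 points of the same cells coincide.

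Krt6a had its largest log2 fold change between genotypes, among the classes in which it was tested, in Krt79-positive cells, while Krt17 had its largest in Krt75-positive cells. Krt16 had similar values in both, 2.19 in Krt75-positive and 2.05 in Krt79-positive cells. In the part of the Krt79-positive cells high in basal keratins, divided off below, that of Krt16 was 2.61. In the Krt79-positive cells as a whole Krt6a, the type II keratin that marks the companion layer, stood at 27.6 and 11 CPM in control and at 981 and 2007 CPM in CerS4epi-/- mice. Both CerS4epi-/- mice were above both control mice, replicate 2 further than replicate 1. The mean was 19.3 ± 11.7 CPM in control and 1494 ± 725 CPM in CerS4epi-/- mice (SD, n = 2 mice each), 77.6 times higher, with a log2 fold change of 6.27 ± 0.42 (SE, adjusted p = 6.49e-05). Of the 4 members, 3 were higher in this class and 0 lower, where 7.68% of the 11503 genes tested were higher. Over the alternatives computed for Krt6a in these cells, its log2 fold change lay between 5.66 and 7.15.

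Few of the cells carried the rise. A count of Krt6a was found in 2.67% and 2.04% of Krt79-positive cells of control and in 17.1% and 20.9% of those of CerS4epi-/- mice, against 1.45% to 5.63% of T cell-like cells over the 4 mice. With 2 mice per genotype the smallest two-sided p of the exact permutation test is 0.333, which these shares have. After each cell was thinned to 1200 counts the shares were 1.00% and 1.46% against 11.1% and 16.2%. At least 10 counts were found in 2 of 900 and 1 of 686 control cells and in 113 of 1767 and 170 of 1597 CerS4epi-/- cells. At least 100 counts were found in 0 and 0 control cells and in 24 and 43 CerS4epi-/- cells. Krt79-positive cells thus held 49.8% and 51.2% of all Krt6a counts of the CerS4epi-/- mice, and Krt75-positive cells 12.4% and 12.0%.

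**Figure D2:**
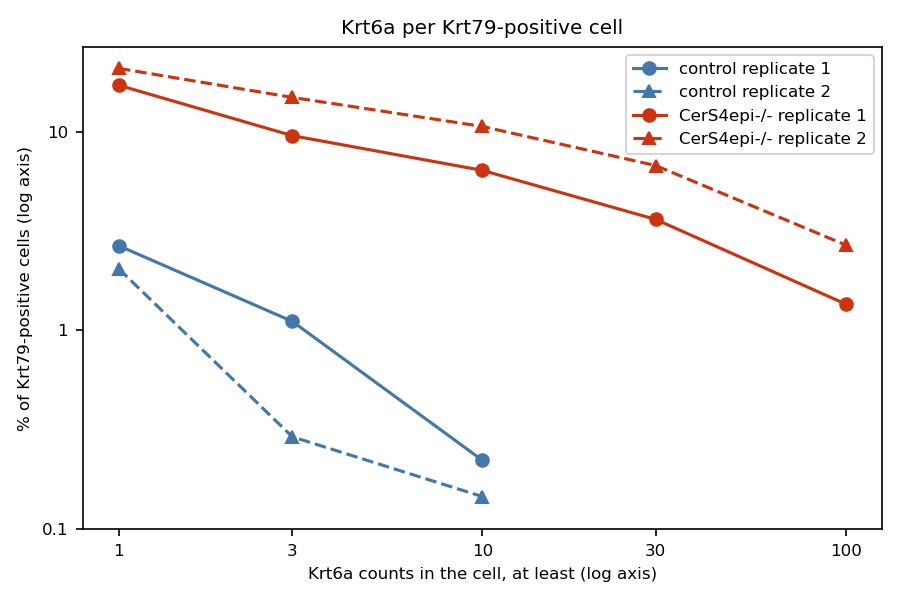
Share of Krt79-positive cells (vertical log axis, percent) that held at least 1, 3, 10, 30 or 100 counts of Krt6a (horizontal log axis), 1 line per mouse, blue for control and red for CerS4epi-/-. The control lines end at 10 counts because 0 control cells held 30 or more, while 1.36% and 2.69% of the CerS4epi-/- cells held 100 or more.

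Krt79-positive cells were divided by their counts of the basal keratins Krt5 and Krt14, with 10 counts as the limit. The part above it had 108 and 79 cells in control and 526 and 503 cells in CerS4epi-/- mice, so the makeup of the class differed with genotype. Between 3.21% and 7.13% of the Krt79-positive cells of a mouse had 8 to 11 such counts and lay near the limit. In the part high in basal keratins Krt6a was at 56.9 and 12.9 CPM in control and at 2251 and 4637 CPM in CerS4epi-/- mice (log2 fold change 6.63 ± 0.50 SE, adjusted p = 0.000251), and 32.3% and 45.1% of the CerS4epi-/- cells held it. In the part low in basal keratins it was at 21.7 and 10.6 CPM against 206 and 295 CPM (log2 fold change 3.95 ± 0.24 SE, adjusted p = 4.16e-07). The difference was thus present at both levels of basal keratins. Genes higher in CerS4epi-/- mice were 3.62% of those tested in the part above the limit and 5.84% in the other.

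The Krt79-positive cells of CerS4epi-/- mice with at least 3 counts of Krt6a (169 and 238 cells) were set beside those with none (1464 and 1264 cells), as a description that has no test. Krt16 was at 1160 and 555 CPM in the cells with Krt6a and at 72.1 and 51.1 CPM in those without. Krt6b was at 265 and 251 CPM against 0.128 and 0 CPM. Krt17 was at 15744 and 17322 CPM against 10817 and 10123 CPM. All other members were thus higher in the cells with Krt6a, in both mice.

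Krt79 itself hardly differed between these cells, at 4711 and 4732 CPM with Krt6a and 4319 and 4248 CPM without. Krt14, the type I keratin of basal cells, was at 6301 and 5948 CPM against 1428 and 1298 CPM, while Krt10, the type I keratin of differentiating cells, was at 1269 and 1894 CPM against 5741 and 5949 CPM. Krt75 was at 0.875 and 0.660 CPM in the cells with Krt6a, since cells with 2 or more Krt75 counts form a class of their own. The inner bulge markers summed to 31.5 and 98.3 CPM with Krt6a and to 66.2 and 44 CPM without. Fgf18 was at 0 in the cells with Krt6a of both mice. The 8 outer bulge markers summed to 2508 and 2230 CPM with Krt6a and to 3056 and 2781 CPM without. Among them Cd34 had no count in either kind of cell. Lhx2 was higher with Krt6a (23.6 and 27.7 against 3.23 and 0.845 CPM), as was Sox9 (1091 and 902 against 490 and 466 CPM). Krt15 was lower (1106 and 1078 against 2397 and 2155 CPM). The summed markers of T cells were at 12.2 and 3.30 CPM with Krt6a and 13.6 and 10.3 CPM without. The median depth was 5816 and 5486 counts with Krt6a and 3257 and 2890 counts without.

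The genes that differed most between these cells in the same direction in both mice were chosen after their values were seen. Cald1, which encodes the actin-binding protein caldesmon, was at 702 and 990 CPM with Krt6a against 8.71 and 12.5 CPM without. Gja1, which encodes connexin 43, was at 493 and 408 CPM against 24.0 and 19.4 CPM, and Gpx2, a glutathione peroxidase, at 188 and 183 CPM against 1.29 and 2.11 CPM. Tpm1, Actn1 and Tpm2, whose products bind actin, and S100a6, Cxcl12, Ctsl, Gjb2 and Dsg3 were also higher. On the other side were Skint9, at 39.4 and 57.7 CPM against 600 and 552 CPM, and Agpat4, Cd200, Id4, Dapl1 and Sox21.

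Krt6b, the close paralogue of Krt6a, appeared with it. In Krt79-positive cells it was at 0 and 0 CPM in control and at 37.9 and 57.3 CPM in CerS4epi-/- mice, at least 83.5-fold higher against a floor of 3 counts over both control mice (adjusted p = 0.000157). Its cells were few. Over all classes 84 of the 34150 cells held Krt6b, 5 and 6 in control and 34 and 39 in CerS4epi-/- mice, and the 4 cells with most of it held the greater share of its counts. Of the 84 cells, 49 also held at least 3 counts of Krt6a, and these had 1035 of its 1097 counts. With only the whole-number entries its difference in Krt79-positive cells had an adjusted p of 0.0128. Summed as 1 feature, Krt6a and Krt6b gave a log2 fold change of 6.31 ± 0.42 (SE, adjusted p = 6.34e-05), close to that of Krt6a alone.

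Krt16, a type I partner of the Krt6 chains, rose in Krt79-positive cells as well, from 57.4 and 39.9 CPM in control to 229 and 166 CPM in CerS4epi-/- mice (log2 fold change 2.05 ± 0.19 SE, adjusted p = 0.000272). The groups did not overlap. It was held by 5.33% and 4.66% of the control cells and by 12.5% and 9.83% of the CerS4epi-/- cells, against 0% to 3.52% of T cell-like cells. It rose from 78.5 and 51.4 to 453 and 307 CPM in the part high in basal keratins (adjusted p = 0.000645) and from 53.2 and 37.6 to 91.4 and 73.5 CPM in the part low in them (adjusted p = 0.00367).

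Krt17, the other type I member, was not called in these cells as a whole. It was at 12617 and 11561 CPM in control and at 11479 and 11841 CPM in CerS4epi-/- mice, and the groups overlapped. The means were 12089 ± 746 and 11659.9 ± 256 CPM (SD, n = 2 mice each), with a log2 fold change of 0.00 ± 0.10 (SE, adjusted p = 0.989). It was held by 93.4% to 96.2% of the cells in all 4 mice. In the part high in basal keratins it was at 5952 and 6593 CPM in control and at 8554 and 11020.2 CPM in CerS4epi-/- mice. This narrowly missed the threshold (log2 fold change 0.74, adjusted p = 0.0504) and passed it in 7 of 15 alternatives (log2 fold changes from 0.54 to 0.93). Of the 15, 4 leave 1 mouse in a group. In the part low in basal keratins Krt17 was at 13935 and 12583 against 13266 and 12376 CPM (adjusted p = 0.939).

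Depth, mitochondrial share and markers of other classes moved with genotype in the Krt79-positive cells. Control cells had a median depth of 2747.5 and 2420 counts, and CerS4epi-/- cells of 3496 and 3170 counts, and the median mitochondrial share 7.16% and 6.59% against 9.58% and 9.17%. In cells with at most 10% mitochondrial counts the log2 fold change of Krt6a was 6.49 (adjusted p = 1.74e-05) and that of Krt16 2.02 (adjusted p = 0.00256), and in cells thinned to 1200 counts they were 5.94 (adjusted p = 1.56e-09) and 1.68 (adjusted p = 4.52e-05). The differences were thus present in these cells too. The sum of 6 IFE basal markers was at 1634 and 1835 CPM in control and at 3559 and 3714 CPM in CerS4epi-/- cells, and that of 4 inner bulge markers at 369 and 324 CPM against 59.2 and 54.9 CPM. The 9 sebaceous gland markers summed to 74.2 and 89.5 CPM in control and to 275 and 245 CPM in CerS4epi-/- cells, and in the part high in basal keratins to 104 and 97.8 against 558 and 450 CPM. The 7 upper hair follicle markers were at 16899 and 14124 against 26989 and 33260 CPM, and 6 IFE differentiated markers at 24600 and 26631 against 16798 and 16364 CPM. The part of these markers in the result was not tested beyond the division by basal keratins.

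In the Krt75-positive cells all 3 members tested were higher. Krt17 rose from 1376 and 881 CPM in control to 5859 and 8601 CPM in CerS4epi-/- mice (log2 fold change 2.7 ± 0.24 SE, adjusted p = 8.72e-08). Single cells held much of this, with 299 of the 1007 counts of CerS4epi-/- replicate 1 (29.7%) and 329 of the 1903 of replicate 2 (17.3%), against 14.9% and 12.1% in the highest control cells. At least 5 counts of Krt17 were found in 42.6% and 29.3% of the control cells and in 38.5% and 54.3% of the CerS4epi-/- cells, which overlap. Krt6a, already abundant, was at 8475 and 5512 CPM in control and at 11384 and 14136 CPM in CerS4epi-/- mice (log2 fold change 0.89 ± 0.20 SE, adjusted p = 0.00613). Krt16 was at 239 and 0 CPM against 751 and 451 CPM (log2 fold change 2.19 ± 0.53 SE, adjusted p = 0.0145), and single cells held 44.2% and 35.1% of its CerS4epi-/- counts. Of the 3421 genes tested in this class 3.48% were higher, and Krt6b was not tested. With DESeq2 in place of edgeR, Krt6a had an adjusted p of 0.0569 and Krt16 of 0.999, and without control replicate 2 Krt6a had a log2 fold change of 0.59 and an adjusted p of 0.222. Leaving out each mouse in turn gave Krt16 log2 fold changes from 1.30, without control replicate 2, to 9.80, without control replicate 1. The class held 47 and 41 cells in control and 26 and 35 in CerS4epi-/- mice. The share of its cells with Krt17 was 91.5% and 78.0% in control and 84.6% and 82.9% in CerS4epi-/- mice, while the counts per class rose. The sum of the 7 upper hair follicle markers in this class was 1843 and 686 CPM in control and 6351 and 11084 CPM in CerS4epi-/- mice, and the part of these genes in the result was not tested.

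In the Lhx2-positive cells Krt17 and Krt6a were higher. Krt17 rose from 5157 and 3740 CPM in control to 9452 and 10329.9 CPM in CerS4epi-/- mice (log2 fold change 1.18 ± 0.20 SE, adjusted p = 0.00961). Krt6a rose from 2301 and 2512 to 3768 and 7312 CPM (log2 fold change 1.22 ± 0.29 SE, adjusted p = 0.0357). Krt16 was at 52.2 and 45.0 CPM in control and at 117 and 76.0 CPM in CerS4epi-/- mice (log2 fold change 1.03, adjusted p = 0.116). Of the 3 members tested, 2 were higher, where 3.58% of the 5583 genes tested were. The groups of Krt6a did not overlap, and with stricter gates its adjusted p was 0.147. Leaving out each mouse in turn gave log2 fold changes from 0.69 to 1.67 for Krt6a and from 0.70 to 1.31 for Krt16. The share of Lhx2-positive cells that held Krt6a was 50% and 49.0% in control and 85.2% and 94.7% in CerS4epi-/- mice, and after thinning to 1200 counts 47.1% and 41.2% against 70.4% and 89.5%. The median depth of these cells was 3282 and 3827 against 5190 and 4973 counts, and their median mitochondrial share 7.62% and 7.45% against 10.1% and 12.0%. Between 41.4% and 54.7% of the cells of a mouse had the lowest Lhx2 count that the class admits. In this class the sum of 7 upper hair follicle markers was 44022 and 41359 CPM in control and 25171 and 18545 CPM in CerS4epi-/- mice, that of 6 IFE basal markers 4423 and 3832 CPM against 10857 and 15910 CPM, and the part of these genes in the result was not tested.

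In the Sox9-positive basal cells no member passed the threshold with edgeR or DESeq2, where 0.712% of the 8704 genes tested were higher with edgeR. At an unadjusted p under 0.05 with edgeR, 2 of the 3 members tested passed. The share of all genes at that threshold was not counted, so this count has no background to be read against. Krt6a was at 1294 and 1407 CPM in control and at 1169 and 3203 CPM in CerS4epi-/- mice (log2 fold change 0.75, adjusted p = 0.334), so the CerS4epi-/- mice lay on either side of the control mice. Without CerS4epi-/- replicate 2 its log2 fold change was -0.13, and without CerS4epi-/- replicate 1 it was 1.32. Krt17 was at 1028 and 1235 CPM in control and at 1540.3 and 3631 CPM in CerS4epi-/- mice (log2 fold change 1.25, adjusted p = 0.0521). It passed the threshold in 9 of 15 alternatives, with log2 fold changes from 0.52 to 1.75. Of the 15, 4 leave 1 mouse in a group and so hold no spread within it. Krt16 was at 353 and 42.3 CPM against 86.7 and 252 CPM (adjusted p = 0.905), and 60.3% of its counts in control replicate 1 came from 1 cell. Its log2 fold change was 2.05 without control replicate 1 and -1.23 without CerS4epi-/- replicate 2. The 118 CPM of Krt6b in CerS4epi-/- replicate 2 rested on 1 cell with 83.4% of the counts.

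In the IFE classes the levels were low and are set beside those of free RNA. Barcodes with under 100 counts, which are taken to hold no cell, had Krt6a at 89.2 and 88.9 CPM in control and at 413 and 464 CPM in CerS4epi-/- mice, Krt16 at 40.9 and 39.1 against 144 and 126 CPM, and Krt17 at 1291 and 1129 against 2298 and 2428 CPM. The RNA outside cells thus differed with genotype in the same direction as the members. These CPM give the makeup of that RNA. How much of it entered a cell's counts was not measured, so they are no background level for a cell.

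Krt6a rose in basal cells from 14.2 and 13.9 CPM in control to 58.0 and 70.1 CPM in CerS4epi-/- mice (log2 fold change 2.23 ± 0.13 SE, adjusted p = 4.67e-05). It was held by 1.48% and 1.43% of control and 4.91% and 5.27% of CerS4epi-/- basal cells, against 3.77% and 3.03% and against 1.45% and 5.63% of T cell-like cells, with median depths of 2517 to 2890 and of 1541 to 1914 counts. After thinning, 2.43% and 2.90% of CerS4epi-/- basal cells held it, against 1.45% and 4.32% of T cell-like cells. The share in basal cells was thus above that in T cell-like cells of the same mouse in CerS4epi-/- replicate 1 and below it in the other 3 mice. T cell-like cells had Krt6a at 84.4 and 13.9 CPM in control and at 5.69 and 55.8 CPM in CerS4epi-/- mice, from 2 to 21 counts per mouse, so there the groups overlapped. Langerhans cell-like cells had it at 0 and 0 CPM against 23.5 and 416 CPM, the last mostly from 1 cell with 65.5 counts. The part of free RNA in the rise of the basal cells was not tested. Differentiated cells had Krt6a at 28.2 and 8.57 CPM against 18.6 and 24.3 CPM (adjusted p = 0.792), and keratinized cells at 1.41 and 3.05 CPM against 10.5 and 36.8 CPM (log2 fold change 3.36, adjusted p = 0.00867). After thinning to 1200 counts at most 1.81% of differentiated and 0.977% of keratinized cells of a mouse held it, against 1.45% to 4.32% of T cell-like cells. In keratinized cells 73.5% of the counts of CerS4epi-/- replicate 2 came from 1 cell, and without the 5% of cells with most counts the adjusted p was 0.0727.

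Krt16 was called higher in 3 of the 4 IFE classes. In basal cells it rose from 33.3 and 28.5 CPM in control to 91.3 and 91.4 CPM in CerS4epi-/- mice (log2 fold change 1.62 ± 0.10 SE, adjusted p = 8.64e-05). It was held by 4.83% and 3.98% of control and by 10.5% and 9.27% of CerS4epi-/- basal cells, against at most 3.52% of T cell-like and 4.35% of Langerhans cell-like cells of a mouse. After thinning to 1200 counts the shares were 2.7% and 1.84% against 4.68% and 4.93%, and those of T cell-like cells at most 2.16%, so the thinned share of control replicate 2 is within that of T cell-like cells. In cycling cells it rose from 24.7 and 23.4 to 85.9 and 60.9 CPM (adjusted p = 0.000404) and in differentiated cells from 27.5 and 18.3 to 85.2 and 51.5 CPM (adjusted p = 0.00379). Of the differentiated cells 3.68% and 2.07% held it in control and 10.9% and 8.96% in CerS4epi-/- mice, and after thinning 1.67% and 1.05% against 5.37% and 3.65%, so the thinned control shares lie within those of T cell-like cells. In keratinized cells it was at 7.99 and 1.57 CPM against 4.27 and 4.41 CPM (adjusted p = 0.995), and 1.22% to 3.45% of them held it, which is within the share of T cell-like cells. The levels in basal, cycling and differentiated cells lay below those of the barcodes with under 100 counts, and the part of free RNA in them was not tested further.

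Krt17 was called higher in all 4 IFE classes, by small amounts. It rose from 192 and 175 to 316 and 377 CPM in basal cells (log2 fold change 0.97 ± 0.10 SE, adjusted p = 0.0008), from 130.1 and 145 to 210.0 and 316 CPM in cycling cells (adjusted p = 0.00508), from 90.8 and 98.0 to 126 and 138 CPM in differentiated cells (adjusted p = 0.00583) and from 798 and 762 to 943 and 1034 CPM in keratinized cells (adjusted p = 0.0074). T cell-like cells held more of it than basal cells, 782 and 705 CPM in control and 742 and 792 CPM in CerS4epi-/- mice, of which 31.5% to 58.6% came from 1 cell in each mouse. The thinned share of cells with Krt17 was 11.9% and 11.9% in control and 20.7% and 22.7% in CerS4epi-/- basal cells, against 10.6% to 15.2% of T cell-like cells, so the control share is within that of T cell-like cells.

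The members called higher were 4 of 4 tested in basal cells (3.58% of all genes tested were higher), 2 of 3 in cycling cells (0.66%), 2 of 4 in differentiated cells (4.55%) and 2 of 4 in keratinized cells (6.25%). In basal cells Krt6b was at 0.118 and 0.115 CPM in control, a single count each, and at 7.55 and 2.28 CPM in CerS4epi-/- mice (adjusted p = 0.00873). In T cell-like cells 0 of 2 and in Langerhans cell-like cells 0 of 1 members tested passed the threshold with edgeR or DESeq2. At an unadjusted p under 0.05 with edgeR, 0 and 1 did. Genes higher there at an adjusted p under 0.05 were 0.496% and 0.156% of those tested, and the share at the unadjusted threshold was not counted. In Langerhans cell-like cells Krt17 was at 208 and 888 CPM in control and at 1350.2 and 2106 CPM in CerS4epi-/- mice (adjusted p = 0.466). Over all cells, where the shares of the classes enter too, all 4 members were higher, where 8.18% of the 16034 genes tested were, with log2 fold changes of 2.83 for Krt6a, 3.89 for Krt6b, 1.86 for Krt16 and 1.29 for Krt17.

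**Figure D3:**
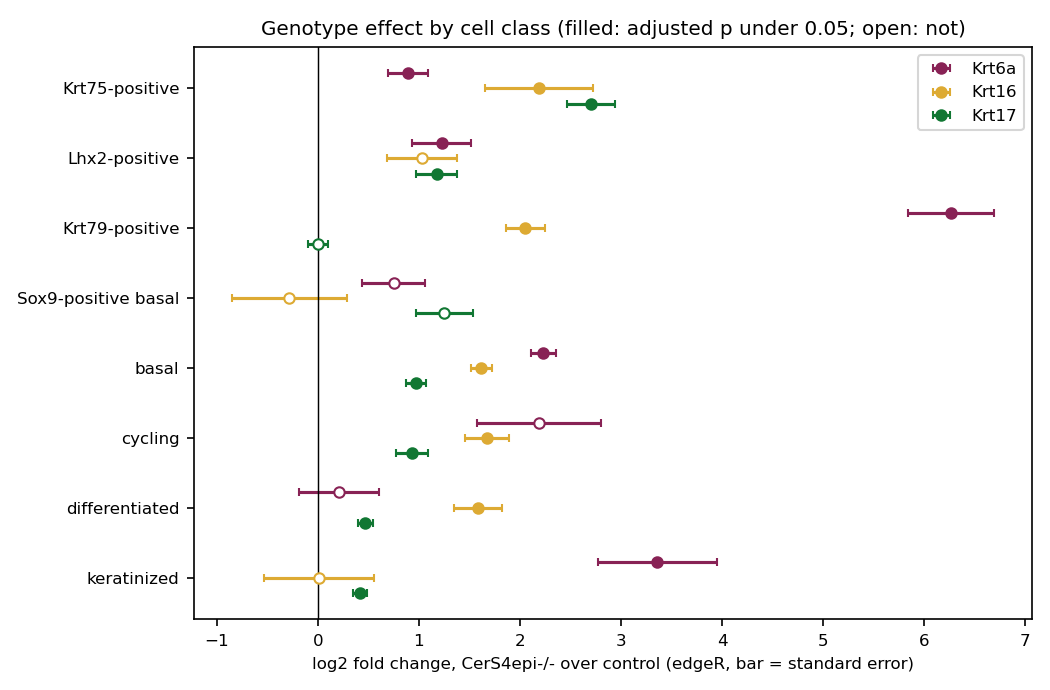
Log2 fold change of Krt6a, Krt16 and Krt17 between CerS4epi-/- and control mice (horizontal axis) in 8 cell classes, from edgeR on sums per mouse, with bars for the standard error and filled points for an adjusted p under 0.05. Krt6b is left out because its control counts are at or near 0. Krt6a lies at 6.27 in Krt79-positive cells, where Krt17 lies at 0.00, while Krt17 lies above Krt6a in Krt75-positive cells.

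Whether the genotype effect differed between classes was tested directly, as an interaction with basal cells as the reference and the mouse as a term. In basal cells Krt6a, Krt16 and Krt17 lay below their levels in the barcodes with under 100 counts. Those levels too were higher in CerS4epi-/- mice, and the part of free RNA in the effect of the reference class was not tested. The effect on Krt6a was larger by 3.97 ± 0.32 on the log2 scale in Krt79-positive than in basal cells (SE, adjusted p = 2.56e-06), and smaller by 0.97 ± 0.10 for Krt17 (log2 difference -0.97, adjusted p = 2.62e-05). For Krt16 the difference was 0.44 ± 0.18 (adjusted p = 0.201). In Krt75-positive cells the signs were the other way, with a difference of -1.36 ± 0.23 for Krt6a (adjusted p = 6.73e-07) and of 1.70 ± 0.22 for Krt17 (adjusted p = 3.44e-12). In Lhx2-positive cells the effect on Krt6a differed by -1.03 (adjusted p = 0.0380), and in Sox9-positive basal cells by -1.61 for Krt6a (adjusted p = 0.000345) and by -1.86 for Krt16 (adjusted p = 0.0456). Some of these differences rested on single mice. That of Krt6a in Krt75-positive cells had an adjusted p of 0.202 without control replicate 1, and that in Lhx2-positive cells 0.0688 without control replicate 2 and 0.203 without CerS4epi-/- replicate 1. In Sox9-positive basal cells that of Krt6a had 0.10 without control replicate 1 and 0.123 without control replicate 2, and that of Krt16 was 0.27 without control replicate 1 (adjusted p = 0.952). Of the members, 2 of 4 differed in this way in Krt79-positive cells (5.38% of all genes tested did), 2 of 4 in Krt75-positive cells (2.07%), 1 of 3 in Lhx2-positive cells (2.14%) and 2 of 4 in Sox9-positive basal cells (0.905%).

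**Figure D4:**
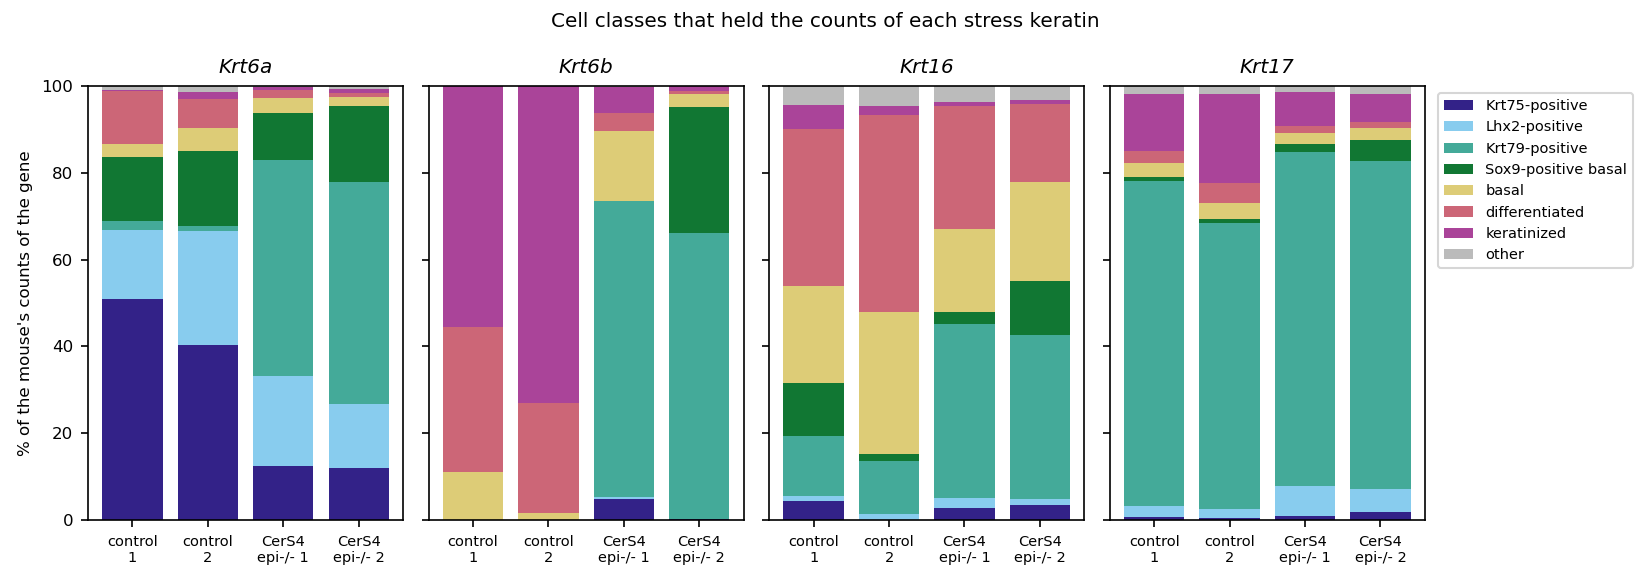
Share of each mouse's counts of a gene (vertical axis, percent) that lay in each cell class, as stacked bars for 2 control and 2 CerS4epi-/- mice, with 1 panel per gene. Krt79-positive cells held 2.18% and 1.08% of the Krt6a counts in control and 49.8% and 51.2% in CerS4epi-/- mice, and 65.7% to 77.0% of the Krt17 counts in all 4. The Krt6b bars of the control mice rest on 9 and 63 counts.

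Other genes of the activated keratinocyte were counted from lists chosen with earlier results of these data known. In Krt79-positive cells, where 7.68% of all genes tested were higher and 5.27% lower, 9 of 19 wound and activation genes were higher and 1 was lower, with a median log2 fold change of 0.70 against 0.01 over all genes. Lcn2, which encodes the antimicrobial protein lipocalin 2, was at 0 and 0 CPM in control and at 12.1 and 22.8 CPM in CerS4epi-/- mice. Sprr1b, a precursor of the cornified envelope, was at 6.81 and 10.1 against 111 and 30.7 CPM, and Il1a, which encodes the cytokine interleukin 1 alpha, at 0.973 and 2.19 against 9.86 and 13.1 CPM. Of 10 targets of NRF2, a factor of the oxidative stress response, 6 were higher and 0 lower, led by Gpx2 (0.973 and 0.878 against 29.5 and 44.2 CPM), Osgin1 (log2 fold change 3.55) and Srxn1 (1.27). Of 20 regulators of these keratins, 2 were higher, Fosl2 (log2 fold change 0.70) and Stat3 (0.47), and 0 lower. Of 16 immediate early genes, which rise during tissue dissociation, 1 was higher, Ier3 (log2 fold change 1.54).

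Genes of the companion layer and inner bulge moved in both directions in Krt79-positive cells. Of 7 tested, 3 were higher, Cald1 (3.24 and 1.76 against 112 and 238 CPM), Gpx2 and Dsc2 (log2 fold change 3.18), and 3 lower, Timp3 (364 and 321 against 57.7 and 52.9 CPM), Fst (log2 fold change -1.29) and Sbsn (-0.54). Among 15 other keratins tested 2 were higher, Krt14 (767 and 748 against 2149 and 2407 CPM, log2 fold change 1.64) and Krt5 (0.67), and 4 were lower, of which Krt32 (-1.06) and Krt77 (-0.90) had the largest changes.

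The same lists were counted in Krt75-positive, Lhx2-positive and basal cells, where other numbers of their genes were tested. No difference between classes was tested for a list. In Krt75-positive cells, where 3.01% of all genes tested were lower, 2 of 5 wound genes tested were higher, Sprr1a (51.3 and 29.6 against 3353 and 6769.6 CPM) and Hbegf (17.1 and 29.6 against 274 and 244 CPM), and 0 lower. Of 10 other keratins 2 were higher, among them Krt79 (51.3 and 76.9 against 693 and 800.4 CPM), and 4 were lower, led by Krt1 (log2 fold change -4.70), Krt10 (-4.66) and Krt77 (-4.10). Of 4 NRF2 targets 1 was higher (Gpx2, log2 fold change 1.62), of 15 regulators 0 were higher or lower, of 16 immediate early genes 1 was higher (Ier3, 3.14) and 2 lower (Nr4a1, -2.44, and Atf3, -1.39), and of 7 companion layer and inner bulge genes 2 were higher, Cald1 (34.2 and 5.92 against 896 and 895 CPM) and Gpx2, and 2 lower, of which Fgf18 changed most (log2 fold change -0.96).

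In Lhx2-positive cells, where 4.33% of all genes tested were lower, 1 of 11 wound genes was higher (Plau, log2 fold change 2.85) and 2 lower (Tgfa, -1.59, and Serpinb2, -1.45). Of 11 other keratins 1 was higher, Krt14 (769 and 639 against 6459 and 9689.9 CPM), and 3 lower, Krt32 (log2 fold change -3.32), Krt10 (-2.44) and Krt15 (6839 and 5252 against 2517 and 1926 CPM), the keratin of bulge cells. Of 6 NRF2 targets 2 were higher (Gclm, 2.14, and Gpx2, 1.95), of 17 regulators 0 passed in either direction, 1 of 16 immediate early genes was higher (Btg2, 1.13), and of 6 companion layer and inner bulge genes 2 were higher, led by Cald1 (4.25), and 4 lower, led by Bmp6 (-2.79) and Fst (-2.43). In basal cells, where 2.23% of all genes tested were lower, 5 of 19 wound genes were higher and 3 lower, led by Lcn2 (0.118 and 0.115 against 2.7 and 8.29 CPM), Sprr1a (52.5 and 27.6 against 202 and 173 CPM) and Cxcl1 (log2 fold change 1.56), and 8 of 16 immediate early genes were higher and 0 lower, led by Ier3 (log2 fold change 1.08), Egr1 (0.56) and Dusp1 (0.46). In the same cells 4 of 11 NRF2 targets were higher and 0 lower, led by Gpx2 (2.15), Gclm (0.73) and Cbr3 (0.54), and 4 of 20 regulators, led by Gli2 (1.49), Fos (0.44) and Klf4 (0.39), with 0 lower. Of 7 companion layer and inner bulge genes 4 were higher in basal cells and 0 lower, led by Cald1 (2.87), Gpx2 and Wnt11 (1.91). Of 16 other keratins 2 were higher, Krt7 (2.33) and Krt79 (1.26), and 3 lower, of which Krt2 changed most (-1.54). Immediate early genes were also higher in differentiated cells (10 of 16, where 4.55% of all genes tested were) and in keratinized cells (12 of 16, where 6.25% were). In cycling cells 0 of 16 were higher, and 0 were lower in any of these classes. Their part in the results of the members was not tested.

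The genes whose level followed each member most closely over 44 sums of mouse and class were named as a description, since the sums of a mouse share its library. Krt6a was followed by Fam167a (Spearman's rho 0.863), Cwh43 (0.861), Bmp7 (0.854), Gpx2 (0.852) and Tcf7l1 (0.847). Krt17 was followed by Cst6 (0.870), Nfatc1 (0.865), Timp2 (0.857), Cystm1 (0.853) and Ctsb (0.851), and Krt16 by Tcim (0.810), Epha4 (0.808), Fjx1 (0.796), Zbtb7c (0.789) and Palmd (0.785). Krt6b was followed by Hbegf (0.663), Aldh1a2, Sprr1b, Arhgap1 and Lce1d, at a level near 0 in most sums. Among the members Krt6a and Krt16 had a rho of 0.706 and Krt6a and Krt17 of 0.667, while Krt6a and Krt6b had 0.184.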

How the data were processed

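Back skin epidermis of 4 mice, 2 per genotype, was profiled with the BD Rhapsody whole transcriptome assay. The authors trimmed reads with fastp 0.23.2, aligned them to GRCm39 with STAR 2.7.10a and deposited expected counts per gene and barcode, in which reads that map to several genes are shared by expectation maximization. The deposited counts are not normalized, and values within 0.001 of a whole number were taken as whole.

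A barcode counted as a cell from 1200 counts upwards, unless over 20% of them were mitochondrial. Of the 34150 cells, 18 with fibroblast markers were left out of the classes and kept in the results over all cells. Doublets were not called. Cells were classed by counts of marker genes, with the first matching class taken, and the limits were chosen after seeing the data. The members and gene lists were chosen with earlier results of these data known. Named genes were the members, the 3 called genes of each list and class with the largest changes, and the 5 genes closest to each member by Spearman's rho among 9094 genes. Other genes named among small counts (Krt5, Krt15, Krt79 in Krt75-positive cells, Timp3, Fst and Sbsn) were chosen after their values were seen.

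Estimated counts were summed per mouse and class, rounded, filtered with filterByExpr, scaled by TMM and tested with edgeR 4.0.16 (quasi-likelihood, R 4.3.3, Benjamini-Hochberg adjustment), in classes with at least 20 cells per mouse. DESeq2 1.42.0 was an alternative. Nothing in the labels ties mice across genotypes. The p-values speak for no more than these mice. With 2 mice per genotype, edgeR estimates a gene's spread with information shared over all genes tested. Very small p-values thus rest in part on that sharing, and not on the gene's own spread alone. Intervals and limits for counts of 0 cover counting error only. A cell held a gene at 0.5 counts or more. On simulated data, 55% of genes changed by 1 on the log2 scale and 91% of those changed by 2 were recovered in Krt79-positive cells (11503 genes), and 31% and 86% in Krt75-positive cells (3421 genes). The simulation gave every gene the same fixed dispersion, not estimated from these mice, so these rates do not measure the power in the data. Replicates with the same number did not deviate together, with correlations of -0.144 to 0.094, so no block was used. Sequences and positions come from Gencode vM39 on GRCm39.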

Additional observations from a re-analysis of the deposited data

Results flagged for a closer look

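The genotype effect, CerS4epi-/- against control, differed between cell classes by a direct test. The reference was the basal class, where Krt6a, Krt16 and Krt17 lay below their levels in barcodes with under 100 counts. How much free RNA entered a cell's counts was not measured, and the part of it in the effect of that class was not tested. Against basal cells, the effect on Krt6a was larger by 3.974 in Krt79-positive cells (log2, adjusted p = 2.56e-06), and differed by -1.355 in Krt75-positive cells (adjusted p = 6.73e-07) and by -1.034 in Lhx2-positive cells (adjusted p = 0.0380). The effect on Krt17 differed by 1.696 in Krt75-positive cells (adjusted p = 3.44e-12) and by -0.9653 in Krt79-positive cells (adjusted p = 2.62e-05). In Sox9-positive basal cells the effect on Krt6a differed by -1.613 (adjusted p = 0.000345) and that on Krt16 by -1.861 (adjusted p = 0.0456).

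Barcodes with under 100 counts, which entered no comparison, held the 4 genes at a higher level in CerS4epi-/- than in control mice. The mean was 438.9 against 89.08 CPM for Krt6a, 8.014 against 1.061 CPM for Krt6b, 135 against 40.04 CPM for Krt16 and 2363 against 1210 CPM for Krt17 (n = 2 mice each). These differences were not tested.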

How the results depend on the processing

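Of 316 values for the genotype effect in the main classes, 275 kept direction and side of the threshold. Where a call changed, the cause was not tested. In Krt75-positive cells Krt16 missed the threshold with DESeq2 (2.33), at least 2000 counts (2.08), whole-number entries (1.99) and thinning (1.96), and Krt6a with DESeq2 (0.89), whole-number entries (0.73) and thinning (0.63). In Lhx2-positive cells Krt6a missed it with stricter gates (0.78), at most 10% mitochondrial counts (1.18) and whole-number entries (1.19), and Krt16 passed without a filter (1.10). In Krt79-positive cells Krt17 turned sign, never past the threshold, with DESeq2 size factors (-0.000889), DESeq2 (-0.00607), without the 5% of cells with most counts (-0.0604), whole-number entries (-0.0257) and thinning (-0.14). In Sox9-positive basal cells Krt16 was 1.25 at most 10% mitochondrial counts, and Krt17 passed with DESeq2 size factors (1.27), no filter (1.30), at least 2000 counts (1.64) and without the 5% of cells with most counts (1.20). Elsewhere signs turned for Krt16 in keratinized cells (-0.0117, -0.0249 and -0.32), Krt17 in T cell-like cells (-0.52, -0.43 and -0.24) and in Krt79-positive cells low in basal keratins (-0.0172 and -0.0732), and Krt17 in Lhx2-positive minus basal cells with stricter gates (-0.25). Differences in shares of cells, in percentage points, turned sign after thinning for Krt17 in Krt75-positive cells (2.39, and 4.33 at 3 counts). After thinning they also did so for Krt16 in Lhx2-positive (-0.17) and Sox9-positive basal cells (-0.42). For Krt6a in Krt75-positive cells, all of which held it, no difference became 1.06 after thinning. For Krt6b in Lhx2-positive cells the difference fell to 0 at 3 counts.

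The replicate block, for numbers that do not pair the mice, gave Krt17 in Sox9-positive basal cells 1.12 (adjusted p = 0.00122) and Krt6a in Krt79-positive cells 6.16, and called 1530 genes in basal cells, against 446 higher and 278 lower without it. With crossed pairing, chosen after seeing the data, Krt16, Krt17 and Krt6a in Sox9-positive basal cells were 0.00411, 1.13 and 0.58, and 354 genes were called in basal cells.

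Leaving out each mouse in turn, where the lone mouse is assumed to vary like the other genotype, gave 0.59 to 1.23 for Krt6a in Krt75-positive cells and 0.69 to 1.67 in Lhx2-positive cells, 0.70 to 1.31 for Krt16 there, -0.0775 to 0.0779 for Krt17 in Krt79-positive cells, and -1.23 to 2.05 for Krt16, 0.52 to 1.75 for Krt17 and -0.13 to 1.32 for Krt6a in Sox9-positive basal cells. In other classes it gave -0.13 to 2.25 (Krt6b) and -0.42 to 1.30 (Krt6a) in differentiated, -0.79 to 1.52 (Krt16) and -1.41 to 1.79 (Krt6b) in keratinized, -0.0177 to 0.11 (Krt17) and -3.11 to 1.15 (Krt6a) in T cell-like cells, and -0.0686 to 0.11 (Krt17) in Krt79-positive cells low in basal keratins. Differences against basal cells ran from -0.22 to 12.5 (Krt16) and -1.63 to -1.03 (Krt6a) in Krt75-positive, -1.33 to -0.67 (Krt6a) in Lhx2-positive, 0.21 to 0.64 (Krt16) in Krt79-positive, and -2.70 to 0.27 (Krt16), -0.29 to 0.70 (Krt17), -5.79 to 8.06 (Krt6b) and -2.21 to -1.02 (Krt6a) in Sox9-positive basal cells. Genes called in Krt79-positive cells numbered 842 to 2144 over all alternatives, and in Krt75-positive cells 32 to 335.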
